A study of Mus musculus with 12 samples.

Results

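Small bowel RNA of male C57BL/6 mice was compared between both arms of a feeding study before ileocecal resection, the surgical removal of the last stretch of ileum together with the cecum. The comparison set 3 libraries of the treatment arm (Pre 2'-FL) against 3 libraries of the control arm (Pre control). The treatment is 2'-fucosyllactose, abbreviated 2'-FL, a fucosylated sugar of human milk. These are 6 of the 12 libraries of the series, picked by their labels, and the comparison was chosen with earlier results of these data known. The other 6 libraries were taken after resection. They entered the filter on low counts, the scaling and the estimate of the spread between libraries. The arms after resection, and the difference of that comparison from the one before, are given only for genes described here.

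Per the labels, every mouse was a male of the C57BL/6 strain, 8 to 10 weeks old at surgery, and no other allele is named. Supplementation at 2.5 g/L is stated to begin with the surgery on day 0. The labels of the Pre 2'-FL libraries nevertheless name supplementation, and the protocol text places all bowels at 8 weeks after resection. The single library labels were followed here, so whether the Pre 2'-FL mice had received the sugar when the bowel was taken cannot be told from the labels. A liquid diet after surgery, followed by chow, is stated alike for all libraries. Feeding state, hour of collection and bowel segment are not given in the labels used here, and each library is described as the bowel of a mouse. P-values therefore set a difference between the arms against the spread between libraries, which was estimated from all 12 of the series.

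Most tissues carry a circadian clock. In its core loop the activators ARNTL (BMAL1) and CLOCK switch on the repressors of the Period and Cryptochrome families and the nuclear receptors of the REV-ERB family, which in turn shut the activators down, so activator and repressor transcripts peak at different hours of the day. Output factors such as DBP, TEF and HLF carry the rhythm on to metabolic and transport genes, and feeding time is known to set the phase in the gut. The small bowel also differs along its length: the duodenum and jejunum carry iron uptake, lactase and GATA4, and the ileum carries bile acid uptake through SLC10A2 and FABP6. A piece of bowel further brings along variable amounts of mesenteric fat, muscle wall and lymphoid follicles.

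Total counts were between 7869012 and 9385266 in the Pre control libraries and between 5663275 and 7081702 in the Pre 2'-FL libraries. Levels are given in CPM, counts scaled to a common library size after TMM normalisation. Of 35791 genes, 13154 passed the filter on low counts. The correlation of log2 levels across genes, which are not independent replicates, was 0.948 to 0.978 between libraries of different arms, 0.959 to 0.974 within Pre control and 0.957 to 0.979 within Pre 2'-FL. The groups thus did not separate in this measure. Along the first principal component, with 44.4% of the variance, Pre control 1 lay farthest out at -49.1 and Pre 2'-FL 2 at the other end at 33.9, while Pre control 3 lay at 22.5 among the Pre 2'-FL libraries. The second component, with 21.3%, set Pre 2'-FL 1 at 37.7 against Pre control 2 at -27.4. Esp38, a transcript named for a secreted gland peptide, took 1.25% of the counts in Pre 2'-FL 1 and 14.1% in Pre control 3, and calls without it are given with the other alternatives.

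Before resection 2 of 13154 genes differed between the arms at an adjusted p under 0.05 (0.0152% of genes tested), both lower in Pre 2'-FL and none higher. Bcmo1 encodes the enzyme that cleaves beta-carotene into retinal, and Per2 encodes a repressor of the clock. Without an adjustment for the number of genes, 445 genes had p under 0.05 (3.38%), 199 higher (1.51%) and 246 lower (1.87%). The 3 libraries of 1 arm lay entirely above or below those of the other in 1213 genes (9.22%), 567 of them higher in Pre 2'-FL (4.31%) and 646 lower (4.91%). The median log2 difference over all genes was 0.02, and the median SD of a gene within a group was 0.27 on the log2 scale. A within-group SD above 1 on that scale was found in 260 genes (1.98%).

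**Figure D1:**
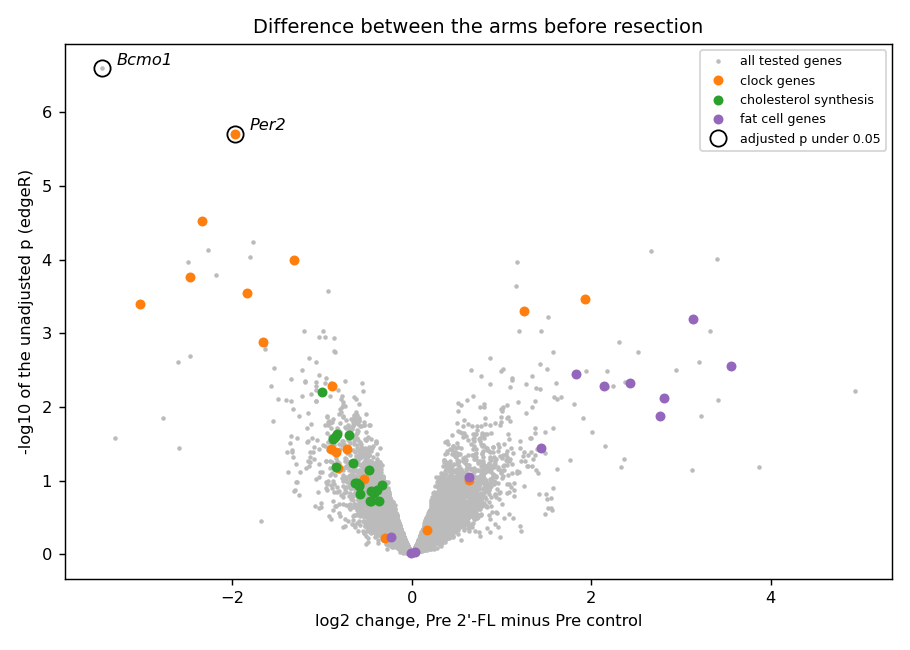
Each point is 1 of 13154 genes, with the log2 difference (Pre 2'-FL minus Pre control) on the horizontal axis and -log10 of edgeR's unadjusted p on the vertical axis. Bcmo1 and Per2, circled, are the 2 genes called, and clock genes (orange), fat cell genes (purple) and cholesterol synthesis genes (green) are marked.

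Bcmo1 (Entrez 63857, chromosome 8, 117095851 to 117133720 in GRCm38) stood at 7.63, 8.03 and 7.01 CPM in Pre control 1 to 3. In Pre 2'-FL it was at 0.846, 0.469 and 0.678 CPM, from 7, 3 and 4 counts. Control libraries were close to each other and all far above the other arm. Its mean fell from 7.56 ± 0.510 CPM (SD, n = 3) to 0.664 ± 0.189 CPM, an 11.4-fold difference, with a log2 difference of -3.45 ± 0.38 (SE) and an adjusted p of 0.00331 by edgeR's quasi-likelihood F test. It was named after its values were seen, since its mean over the 6 libraries lies below the 5 CPM asked of named genes.

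Per2 (Entrez 18627, chromosome 1, 91415977 to 91459351) was at 28.9, 55.8 and 31.3 CPM in Pre control, and at 9.67, 10.2 and 9.83 CPM in Pre 2'-FL. The Pre 2'-FL libraries were nearly equal to each other, and every control library was well above them. The mean fell from 38.6 ± 14.9 to 9.88 ± 0.249 CPM (SD, n = 3), a 3.91-fold difference with a log2 difference of -1.97 ± 0.26 (SE) and an adjusted p of 0.0128 by the same test. The next smallest adjusted p of any gene was 0.128. The number of genes called depended on single libraries: it was 7 without Pre control 3, 17 without Pre 2'-FL 1, 0 without Pre 2'-FL 2 and 1 without Pre 2'-FL 3. Without Pre 2'-FL 2 the adjusted p was 0.0520 for Bcmo1 and 0.107 for Per2, and Per2 also missed the threshold without Pre 2'-FL 3 (0.150) and when only the 6 libraries before resection were fitted (0.293).

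Of the 18 clock genes that passed the filter, Per2 was the one called at this threshold. Most others lay apart between the arms, repressors and outputs lower in Pre 2'-FL and the activator Arntl higher. Of 9 repressors, 7 lay lower in every Pre 2'-FL library than in every control library, against 4.91% of all genes, and the median log2 difference of the 9 was -0.85 against 0.02 over all genes. Of 6 outputs, 5 lay lower in every Pre 2'-FL library and Nfil3 lay higher, and the median was -1.49. The remaining repressor of the list, Bhlhe41, did not pass the filter.

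The windows around the start sites of 4 of these genes are shown because they carry, within 300 bases, the short sequences through which the clock's parts are known to act on each other. They are RefSeq reference windows on GRCm38.p6, from 250 bases before to 50 bases after the start, printed along the gene's strand. Capitals mark the E-box CACGTG, bound by CLOCK and ARNTL, in Ciart (chr3:95882179-95882478, minus strand), a repressor of the clock that the files call Gm129. In Per3 (chr4:151044616-151044915, minus strand) they mark the D-box TTANGTAA, bound by DBP, TEF, HLF and NFIL3. In Arntl (chr7:113207261-113207560, plus strand) and Nfil3 (chr13:52980990-52981289, minus strand) they mark the half-site TAGGTCA recognised by REV-ERB receptors, which Nfil3 holds on the opposite strand.
Ciart: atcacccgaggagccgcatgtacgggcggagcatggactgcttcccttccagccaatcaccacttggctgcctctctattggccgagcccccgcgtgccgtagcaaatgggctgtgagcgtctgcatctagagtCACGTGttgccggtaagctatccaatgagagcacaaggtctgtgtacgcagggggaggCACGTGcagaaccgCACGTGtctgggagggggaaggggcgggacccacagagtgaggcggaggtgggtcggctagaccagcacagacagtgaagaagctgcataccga
Per3: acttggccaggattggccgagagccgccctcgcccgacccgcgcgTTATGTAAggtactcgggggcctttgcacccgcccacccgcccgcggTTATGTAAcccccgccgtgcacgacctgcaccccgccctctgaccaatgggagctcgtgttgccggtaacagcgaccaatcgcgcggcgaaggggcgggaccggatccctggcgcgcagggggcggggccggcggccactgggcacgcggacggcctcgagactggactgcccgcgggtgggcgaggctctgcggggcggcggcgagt
Arntl: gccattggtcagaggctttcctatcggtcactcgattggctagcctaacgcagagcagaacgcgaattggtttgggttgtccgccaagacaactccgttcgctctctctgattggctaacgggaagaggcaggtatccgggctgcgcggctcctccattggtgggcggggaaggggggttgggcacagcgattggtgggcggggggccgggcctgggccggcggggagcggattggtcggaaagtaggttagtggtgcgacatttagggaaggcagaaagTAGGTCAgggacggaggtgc
Nfil3: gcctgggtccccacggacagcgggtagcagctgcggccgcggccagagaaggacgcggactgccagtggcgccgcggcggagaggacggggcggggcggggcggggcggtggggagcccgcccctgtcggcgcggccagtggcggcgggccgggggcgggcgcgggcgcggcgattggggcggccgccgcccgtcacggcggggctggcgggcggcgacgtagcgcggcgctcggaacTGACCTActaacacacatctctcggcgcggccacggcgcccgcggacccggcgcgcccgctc

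Both strands were searched. Each printed window held matches of 1 of these motifs alone, so none could overlap a match of another. Ciart holds 3 E-boxes, beginning 116, 58 and 44 bases before the start, and Per3 holds 2 D-boxes. Of the 18 clock genes, 15 had a window in the RefSeq table. An E-box was present in 4 of these (Cry1, Gm129, Per1 and Tef), a D-box in 1 (Per3) and the half-site in 2 (Arntl and Nfil3). Over all 27025 genes with a window in that table the shares were 8.09% for the E-box, 2.72% for the D-box and 2.97% for the half-site. A match is a run of letters and not a measured binding site.

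Among the activators, Arntl was at 12.1, 14.8 and 6.30 CPM in Pre control and at 20.1, 33.1 and 26.3 CPM in Pre 2'-FL. Every Pre 2'-FL library lay above every control, with Pre 2'-FL 2 highest, and the log2 difference was 1.25 ± 0.28 (SE; adjusted p = 0.343, edgeR). Clock, its partner, ranged from 36.6 to 55.8 CPM in control and from 47.2 to 65.6 CPM in Pre 2'-FL, and Npas2, which can stand in for Clock, from 10.2 to 22.0 and from 21.3 to 31.3 CPM. Both overlapped between the arms, and in both Pre control 3 was the lowest library.

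Among the repressors, Per3 was at 12.5, 16.9 and 12.7 CPM in Pre control against 6.29, 2.50 and 2.71 CPM in Pre 2'-FL, a log2 difference of -1.84 ± 0.39 (adjusted p = 0.234, edgeR). Gm129 was at 5.47, 3.25 and 5.11 CPM against 0.242, 0.469 and 1.02 CPM, a log2 difference of -3.03 ± 0.66. In both genes the arms were fully apart. Per1 was nearly equal in all controls, at 29.5, 28.4 and 30.2 CPM, and was at 6.65, 22.3 and 21.2 CPM in Pre 2'-FL, where library 1 was far below the others. Of the remaining repressors, Cry2 (log2 difference -0.85), the REV-ERB beta gene Nr1d2 (-0.90) and Bhlhe40 (-0.72) did not overlap, and none of them was called. Cry1 overlapped through Pre 2'-FL 2 at 23.0 CPM. Nr1d1, the gene of REV-ERB alpha, also overlapped: it was at 161, 78.0 and 107 CPM in Pre control and at 153, 52.5 and 75.4 CPM in Pre 2'-FL, so that library 1 was highest in each arm.

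The output Dbp was at 112, 74.5 and 96.9 CPM in Pre control and at 30.3, 3.91 and 16.1 CPM in Pre 2'-FL. It spread widely within the Pre 2'-FL arm, where library 2 was lowest, while the controls kept close together, and its log2 difference was -2.47 ± 0.49 (SE; adjusted p = 0.171, edgeR). Hlf was at 16.1, 26.2 and 19.5 CPM against 6.89, 2.19 and 2.88 CPM, with a log2 difference of -2.33 ± 0.39 (adjusted p = 0.128, edgeR). Tef was at 114, 111 and 98.4 CPM against 49.8, 19.8 and 32.2 CPM. In all 3 of these related transcription factors the order within the Pre 2'-FL arm was the same, library 1 highest and library 2 lowest. Usp2, a deubiquitinase under clock control, had a log2 difference of -1.32 ± 0.25 and Wee1, the clock-controlled inhibitor of entry into mitosis, of -0.89 ± 0.27. Nfil3, which competes with the DBP family for the D-box, ran the other way at 3.94, 2.03 and 6.18 CPM in Pre control and 11.5, 23.4 and 11.4 CPM in Pre 2'-FL (log2 difference 1.93 ± 0.42). Its highest library was Pre 2'-FL 2, the lowest library of Dbp, Hlf and Tef.

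**Figure D2:**
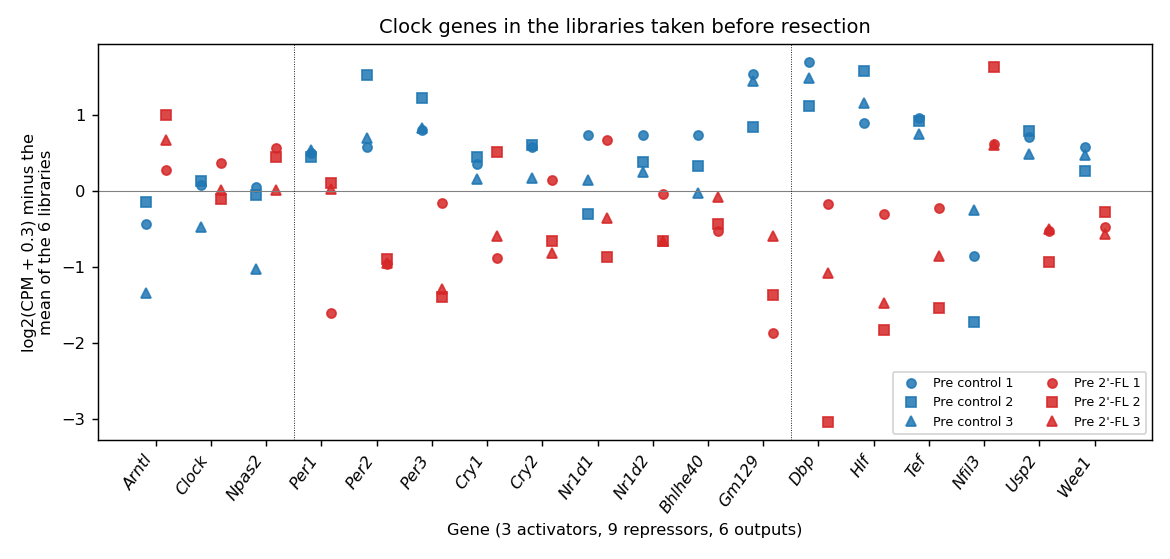
Levels of the 18 clock genes tested, as log2(CPM + 0.3) minus the mean of the 6 libraries, with controls in blue and Pre 2'-FL in red and 1 symbol per library number. Blue points lie above red in 7 of 9 repressors and 5 of 6 outputs, and red above blue in Arntl and Nfil3.

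The separation of these genes was the same under other scalings: 7 of 9 repressors and 5 of 6 outputs lay apart with upper quartile scaling, with DESeq2's size factors, without Esp38 and Lars2, and with transcript length and GC content corrected. DESeq2, which called 23 genes in all, called Per2, Per3, Hlf, Tef, Usp2, Gm129, Arntl and Nfil3 among them. Without Pre control 1 and Pre 2'-FL 1, the libraries rich in B cell genes described below, 8 of 9 repressors and 5 of 6 outputs lay apart in this direction, against 17.5% of all genes. Whether the arms were collected at different hours cannot be told from the labels used here.

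After resection the arms were compared in the same model, where 2471 genes (18.8%) were called higher and 2540 (19.3%) lower in 2'-FL. Per2 was again lower in 2'-FL there, with a log2 difference of -1.95 (adjusted p = 0.000806, edgeR), and the difference between both comparisons was 0.02 (adjusted p = 0.989). Arntl, higher in Pre 2'-FL, was lower in 2'-FL after resection, at -0.98 (adjusted p = 0.0114), and its difference of -2.23 between both comparisons was called (adjusted p = 0.0159). That difference was not called with length and GC content corrected (-2.17, adjusted p = 0.0530). Bcmo1 was lower in 2'-FL after resection too, at -1.54 (adjusted p = 0.00470). Both arms after resection are other libraries than those before it.

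The other genes with the smallest p in this comparison are led by transporters and reductases. Abcb1a encodes a P-glycoprotein that pumps drugs and other compounds out of enterocytes, and was at 513, 398 and 219 CPM in Pre control and at 144, 79.4 and 100.1 CPM in Pre 2'-FL. Its close relative Abcb1b was at 31.9, 26.9 and 13.8 CPM against 8.58, 5.47 and 7.12 CPM. Both genes lay apart between the arms, Pre control 3 was the lowest control in both, and their log2 differences were -1.80 ± 0.34 and -1.77 ± 0.32 (adjusted p = 0.128 each, edgeR). Akr1c14, a hydroxysteroid dehydrogenase, was at 123, 98.3 and 55.6 CPM against 34.1, 10.8 and 11.7 CPM, a log2 difference of -2.28 ± 0.42 (adjusted p = 0.128). Its relatives Akr1c19 (-2.50), Akr1c13 (-1.20) and Akr1c12 (-1.04), and the sulfate transporter Slc13a1 (-2.18) were also without overlap, and were named after their values were seen. Akr1c19 illustrates the spread: it was at 68.3, 64.9 and 14.7 CPM in Pre control and at 12.3, 6.56 and 6.95 CPM in Pre 2'-FL, so that Pre control 3 nearly met the other arm. Reads of related Akr1c genes may have been divided between them.

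In the other direction stood Socs3, a feedback inhibitor of cytokine signalling, at 22.5, 27.4 and 34.1 CPM in Pre control and at 43.9, 311 and 179 CPM in Pre 2'-FL. Rasd1, a small GTPase induced by glucocorticoids, was at 1.14, 1.93 and 1.78 CPM against 3.99, 32.8 and 15.8 CPM. In both the Pre 2'-FL libraries 2 and 3 stood far above library 1, which itself lay just above the controls. Log2 differences were 2.66 ± 0.49 and 3.40 ± 0.64, each with an adjusted p of 0.128 (edgeR). Stom, the membrane protein stomatin, was steadier at 111, 117 and 118 CPM against 189, 343 and 251 CPM (1.17 ± 0.22, adjusted p = 0.128). Dab1, an adaptor of reelin signalling, had a log2 difference of 1.16 ± 0.24 (adjusted p = 0.215). Without Pre 2'-FL 1, edgeR called Socs3, Rasd1 and Stom higher and Dbp, Hlf, Per3 and Akr1c14 lower, among the 17 genes called then.

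Genes of cholesterol synthesis and uptake were lower in Pre 2'-FL almost throughout, by small amounts. Of 20 genes, 18 lay lower in every Pre 2'-FL library than in every control (4.91% of all genes did), 5 had an unadjusted p under 0.05 (1.87% of all genes, in this direction) and none was called by edgeR or by DESeq2. The median log2 difference of the list was -0.59, and ran from -0.69 to -0.51 over all alternatives. The summed level was 1859, 2159 and 1620 CPM in Pre control and 1202, 1117 and 1340 CPM in Pre 2'-FL.

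The pathway builds mevalonate from acetyl-CoA, joins isoprene units into squalene and closes and trims the sterol ring, and the transcription factor SREBP-2 switches on most of its genes together when cell cholesterol is low. For that factor the RefSeq window of Hmgcs1 (chr13:119690101-119690400, plus strand, GRCm38.p6) is shown, the member in which the sterol element TCACNCCAC, here in capitals, was found on either strand. The motif was in this 1 of the 13 members with a window and in 1.44% of all genes with a window. None of the clock motifs was found in the window of Hmgcs1.
Hmgcs1: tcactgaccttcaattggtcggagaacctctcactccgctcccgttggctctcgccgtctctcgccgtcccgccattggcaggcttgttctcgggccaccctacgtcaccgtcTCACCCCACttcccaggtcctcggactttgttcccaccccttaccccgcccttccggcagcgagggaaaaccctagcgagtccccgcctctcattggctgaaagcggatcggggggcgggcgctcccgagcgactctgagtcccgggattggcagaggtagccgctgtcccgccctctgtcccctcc

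Hmgcs1, which makes the mevalonate precursor, was at 217, 251 and 162 CPM in Pre control and at 133, 110 and 158 CPM in Pre 2'-FL. The gap between the arms was thus narrow, and the log2 difference was -0.65 ± 0.32 (SE). Mvd, which decarboxylates mevalonate pyrophosphate, had the smallest p of the list and was at 22.6, 21.5 and 22.0 CPM against 9.79, 11.7 and 11.7 CPM. Its libraries were tight in both arms, with a log2 difference of -0.997 ± 0.31 (adjusted p = 0.935, edgeR). Mvk (-0.70), the ring-closing enzyme gene Lss (-0.84) and Sc4mol, a sterol methyl oxidase also known as Msmo1 (-0.86), were lower by similar amounts. Sc5d, a sterol desaturase, overlapped between the arms, at 190, 181 and 133 CPM against 149, 108 and 143 CPM. With upper quartile scaling 17 genes of the list lay lower without overlap, against 4.76% of all genes. With each other scaling it was 18, against 4.62% to 5.45% of all genes. Leaving out libraries gave 18 to 20, but the share of all genes rose too. It was 16.0% without Pre control 3 (20 of the list) and 17.5% without Pre control 1 and Pre 2'-FL 1 (19 of the list).

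**Figure D3:**
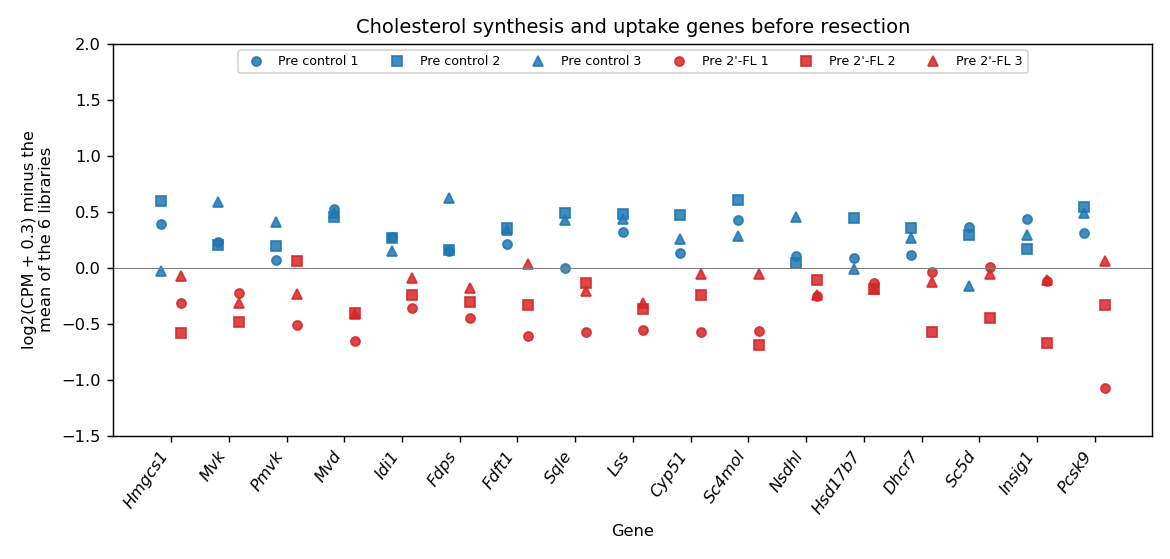
Genes of cholesterol synthesis and uptake (17 of the 20 are plotted) as log2(CPM + 0.3) minus the mean of the 6 libraries (controls blue, Pre 2'-FL red, 1 symbol per library number). In 16 of these 17, all but Sc5d, the blue points lie above the red ones.

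Genes of fatty acid synthesis had no common direction. Of 8 genes tested, Scd2 alone lay apart (9.22% of all genes did in either direction), at 132, 125 and 102 CPM in Pre control and 42.2, 78.9 and 43.0 CPM in Pre 2'-FL. Scd1, the other common stearoyl-CoA desaturase, was at 59.2, 27.5 and 115 CPM against 625, 166 and 102 CPM, so that Pre 2'-FL 1 stood out. Fasn was also highest in that library, at 160 CPM, against 46.0 to 80.6 CPM in the others. Among fasting and PPAR-alpha targets, 3 of 9 lay higher in every Pre 2'-FL library (4.31% of all genes did), among them Pdk4, which shuts off pyruvate oxidation, and Acot1, an acyl-CoA thioesterase. Pdk4 was at 6.10, 6.71 and 4.99 CPM in Pre control and 21.2, 7.97 and 17.1 CPM in Pre 2'-FL, with a log2 difference of 1.38 ± 0.54 (SE) that was not called. The list as a whole had a median of -0.08, with Cpt1a, Ehhadh and Plin2 overlapping.

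Fat cell genes were higher in Pre 2'-FL, and 1 library carried most of this. Of 15 genes, 12 passed the filter, 7 of them lay higher in every Pre 2'-FL library and 8 had an unadjusted p under 0.05 in this direction, against 4.31% and 1.51% of all genes. None was called by edgeR, and DESeq2 called Plin1. The median log2 difference was 1.99, against 0.91 without Pre 2'-FL 1. All 12 were highest in Pre 2'-FL 1. Bulk libraries cannot tell more cells of a type from more RNA per cell, here and for the other cell types.

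The fat hormone gene Adipoq was at 1.78, 2.95 and 4.04 CPM in Pre control and at 48.5, 5.63 and 7.12 CPM in Pre 2'-FL. The muscle and fat carbonic anhydrase Car3 was at 5.21, 7.52 and 10.8 CPM against 219, 18.8 and 40.3 CPM. In both the Pre 2'-FL libraries 2 and 3 lay above the controls and library 1 far above all. Plin1, the coat protein of fat droplets, was at 0.509, 0.813 and 1.31 CPM against 16.7, 2.50 and 3.90 CPM, with a log2 difference of 3.13 ± 0.72 (adjusted p = 0.398, edgeR) that was 1.85 without Pre 2'-FL 1. Plin4, Retn, Cfd and the fatty acid binding protein gene Fabp4 lay apart likewise. Cidec, Lipe, Aqp7, Acvr1c and Thrsp overlapped. Lep was below the filter, at 2.30 CPM in Pre 2'-FL 1 and at most 0.475 CPM elsewhere, and Ucp1, the mark of brown fat, was at 0 counts in all 6. The summed level of the list was 269, 226 and 237 CPM in Pre control and 972, 235 and 306 CPM in Pre 2'-FL.

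Other features set the same library apart. Neat1, a nuclear long noncoding RNA, was at 219 CPM in Pre 2'-FL 1 and between 24.3 and 38.2 CPM in the others. Acta1, the skeletal muscle actin gene, was at 34.3 CPM there and at 2.20 to 6.10 CPM elsewhere, while the muscle myosin genes Myh1, Myh2 and Myh4 were at 0 counts in all 6. Its defensins and other Paneth cell genes were the lowest: Lyz1 was at 4449 CPM in Pre 2'-FL 1, at 7728, 8518 and 12992 CPM in the controls and at 13841 and 12616 CPM in the other Pre 2'-FL libraries. All 14 Paneth cell genes overlapped between the arms, with a median log2 difference of 0.13. Related defensins may share divided reads.

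**Figure D4:**
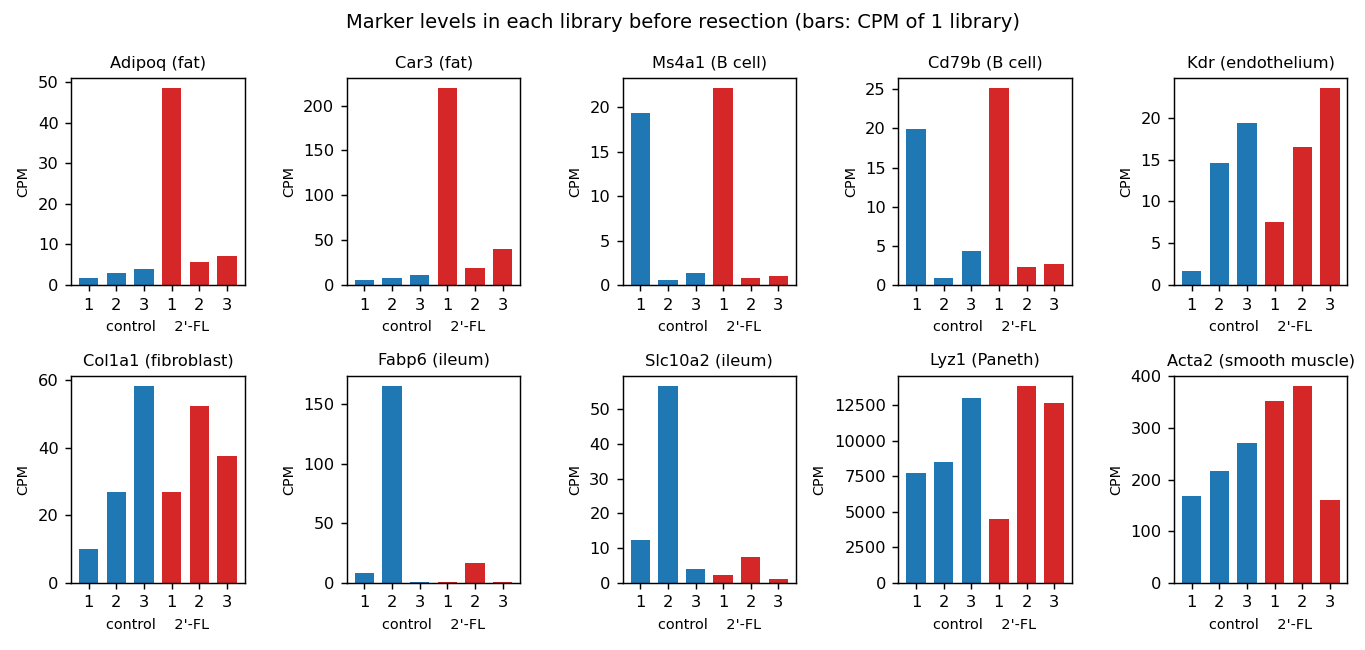
Bars give CPM of 10 marker genes in single libraries, controls 1 to 3 in blue and Pre 2'-FL 1 to 3 in red. Fat genes peak in Pre 2'-FL 1, B cell genes in Pre control 1 and Pre 2'-FL 1, ileal genes in Pre control 2, and the endothelial gene Kdr is lowest in Pre control 1.

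Most B cell and follicle genes split the libraries in another way, which crosses the arms. Ms4a1, the gene of the B cell antigen CD20, was at 19.3 CPM in Pre control 1 and 22.1 CPM in Pre 2'-FL 1, and at 0.508 to 1.31 CPM in the other 4 libraries. Cd79b, which encodes a signalling chain of the B cell receptor, was at 20.0 and 25.1 CPM in the same libraries and at most 4.40 CPM in the others. Cr2, Fcer2a, the follicle chemokine Cxcl13 and its receptor Cxcr5 were also highest in these 2 libraries. Ccl21a of the follicle list did not follow, at 2.67 CPM in Pre control 1, 9.79 CPM in Pre 2'-FL 1 and 6.81 to 11.6 CPM in the others. Jchain (Igj in the files), made by plasma cells, ran the other way, at 198 CPM in Pre control 1 and 234 CPM in Pre 2'-FL 1 and at 469 to 902 CPM in the others. Tnfrsf17 of the same list was also lowest in these libraries, at 0.381 and 0.483 CPM. Mzb1, at 4.45 and 8.70 CPM in them, and Derl3, at 3.56 and 1.33 CPM, were each low in only 1 of these libraries. Cr2, Fcer2a and Tnfrsf17 did not pass the filter, none of the others was called, and the B and plasma cell list had a median log2 difference of 0.25. Leaving both libraries out gave 6 called genes, Bcmo1, Per2, Hlf and Akr1c14 lower and Socs3 and Rasd1 higher. T cell genes were on average lowest in Pre control 2, where the granzyme gene Gzma was at 22.7 CPM against 36.3 to 121 CPM elsewhere.

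Endothelial, fibroblast and haemoglobin genes were lowest in Pre control 1. Kdr, a VEGF receptor of endothelium, was at 1.65, 14.6 and 19.4 CPM in Pre control and at 7.49, 16.6 and 23.5 CPM in Pre 2'-FL. All 10 endothelial genes were highest in Pre 2'-FL 3. The collagen gene Col1a1 was at 9.92, 26.8 and 58.2 CPM against 27.0, 52.3 and 37.4 CPM, and 9 of 11 fibroblast and matrix genes were highest in Pre control 3. The haemoglobin gene Hbb-bs was at 16.8, 40.3 and 67.3 CPM against 74.9, 65.6 and 95.7 CPM. The groups overlapped in every tested gene of these 3 lists. Each of 13 smooth muscle genes was highest in Pre 2'-FL 1 or 2. Acta2 was at 169, 217 and 271 CPM in Pre control and at 353, 382 and 160 CPM in Pre 2'-FL, where library 3 was the lowest of all 6.

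**Figure D5:**
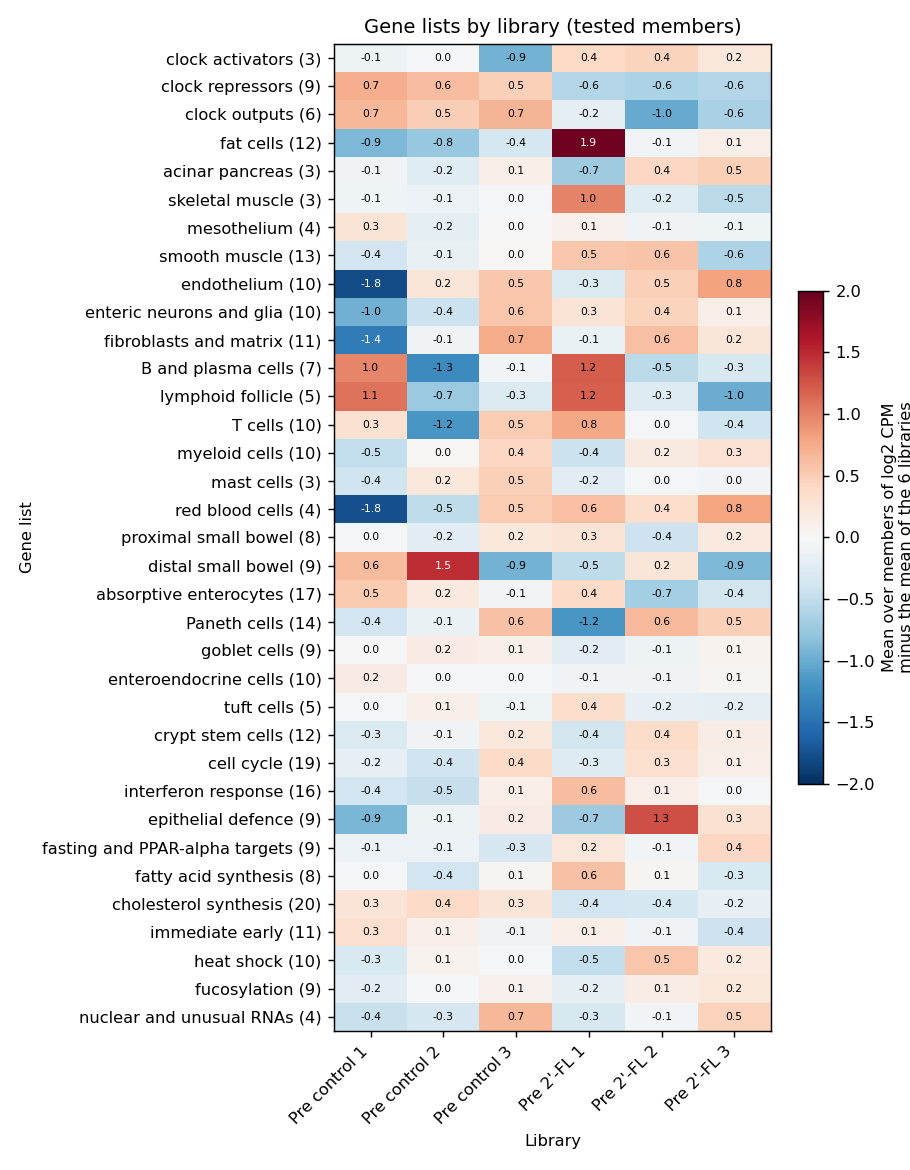
Each cell gives, for 1 library (column) and 1 gene list (row, with its number of tested genes), the mean over genes of log2 CPM minus the gene's mean over the 6 libraries. Clock repressors and outputs and cholesterol synthesis split by arm, whereas endothelium is lowest in Pre control 1 and distal small bowel highest in Pre control 2.

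No gene of the proximal or distal lists lay apart between the arms, and ileal genes were uneven within the control arm. Fabp6, the ileal bile acid binding protein, was at 7.88, 166 and 0.475 CPM in Pre control and at 0.483, 16.9 and 0.508 CPM in Pre 2'-FL. Slc10a2, the apical bile acid transporter of the ileum, was at 12.2, 56.7 and 3.92 CPM against 2.18, 7.50 and 1.02 CPM. Pre control 2 was highest in both, and the Pre 2'-FL libraries 1 and 3 were low in both. Fgf15, the ileal hormone induced by bile acids, followed only in part, at 12.3, 24.5 and 0.357 CPM against 5.92, 22.3 and 6.78 CPM. Cubn, a receptor of vitamin B12 uptake, was at 801, 559 and 302 CPM against 322, 260 and 334 CPM. Of 9 distal genes, 3 had an unadjusted p under 0.05, all lower (1.87% of all genes), but none lay apart between the arms, and the median was -0.59. For Fabp6 the log2 difference of -3.31 ± 1.34 rested on Pre control 2, and without it the value was 0.51.

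Of 10 proximal genes, 8 passed the filter and all overlapped, with a median of -0.02. Gata4 ranged from 86.3 to 101 CPM in Pre control and from 63.8 to 98.0 CPM in Pre 2'-FL. Lct, the lactase gene, was at 2021, 1270 and 973 CPM against 1671, 744 and 1390 CPM, and Fabp1 at 608, 374 and 678 CPM against 1254, 313 and 834 CPM. Pre 2'-FL 2 was the lowest library for all 3 genes. Onecut2 was low throughout, from 0.711 to 5.93 CPM. Ada, adenosine deaminase, was at 349, 294 and 382 CPM against 411, 112 and 92.5 CPM. Genes of other organs were at or near 0: stomach genes summed to at most 1.41 CPM, the colon genes Car1, Hoxd12 and Hoxd13 had 0 counts in all 6, albumin was at most 0.363 CPM, and 7 of 13 acinar pancreas genes had 0 counts. All 6 libraries thus carried small bowel genes with little sign of these other organs.

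Absorptive cell genes were on average lowest in Pre 2'-FL 2 and 3, with a mean log2 level of -0.68 and -0.37 relative to the mean of the 6 libraries. Single genes departed from this, among them Apob, which was lowest in Pre control 3. The brush border gene Vil1 was at 3736, 3121 and 2287 CPM in Pre control and at 3315, 2015 and 2004 CPM in Pre 2'-FL, and sucrase-isomaltase, Sis, at 5954, 3475 and 4442 CPM against 3605, 1827 and 2017 CPM. All 17 genes overlapped, and the median was -0.44. Of 9 goblet cell genes, Tff3, Zg16 and Atoh1, the transcription factor of secretory fate, lay lower in every Pre 2'-FL library (4.91% of all genes did) and Clca1 higher (4.31%). Atoh1 was at 17.4, 15.6 and 15.3 CPM against 8.10, 11.9 and 11 CPM, and Clca1 at 5.47, 11.9 and 8.56 CPM against 15.6, 15.6 and 24.4 CPM. None of these genes was called. All tested genes of the stem cell (12), cell cycle (19), enteroendocrine (10) and tuft cell (5) lists overlapped, with medians of 0.09, 0.10, -0.12 and 0.13.

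Most defence genes had a larger SD of CPM within Pre 2'-FL than within Pre control, but Slpi did not (0.565 against 1.37 CPM). Most also had a higher mean there, though Nos2 did not, so these SDs alone do not show a larger spread relative to the mean. For Reg3g the SD was 1331 CPM at a mean of 1636 CPM in Pre control. In Pre 2'-FL it was 2112 CPM at a mean of 3605 CPM. Reg3b, a secreted lectin, was at 2136, 3075 and 5676 CPM in Pre control and at 3204, 8829 and 11000 CPM in Pre 2'-FL, and Reg3g, which kills Gram-positive bacteria, at 645, 1114 and 3149 CPM against 1179, 5030 and 4607 CPM. Duoxa2, which matures the epithelial oxidase, was at 105 CPM in Pre 2'-FL 2 and at 5.08 to 21.5 CPM elsewhere. Fut2, the fucosyltransferase of the gut surface, was at 0.381, 0.914 and 1.55 CPM against 1.21, 9.53 and 3.22 CPM and overlapped (2.25 ± 0.68, adjusted p = 0.868, edgeR). All 9 defence genes tested overlapped, and 5 of them were highest in Pre 2'-FL 2. In the same library 9 of 10 heat shock genes were highest, with Hsph1 at 86.6 CPM against 19.7 to 51.7 CPM in the others.

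Of 16 interferon-stimulated genes, 4 lay higher in every Pre 2'-FL library (Isg15, Oasl2, Usp18 and Ifi44; 4.31% of all genes did), and 12 were highest in Pre 2'-FL 1. Isg15 was at 9.53, 10.4 and 13.8 CPM in Pre control and at 27.7, 14.2 and 16.6 CPM in Pre 2'-FL. The arms barely parted outside that library, and the median of 0.44 was 0.14 without it. Of 11 immediate early genes, 1 lay apart, a share near the 9.22% of all genes that did so in either direction. It was the nuclear receptor gene Nr4a1, at 2.03 to 2.19 CPM in Pre 2'-FL against 3.09 to 5.38 CPM. Atf3 was at 60.0 CPM in Pre control 1 and at 8.98 to 16.7 CPM elsewhere.

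Among the 15 genes with the largest SD within groups were Fabp6, Fgf15, Ms4a1 and Cd79b, described above by their lists, and 5 genes of the Ugt1a locus, which encodes enzymes that attach glucuronic acid to bilirubin and drugs. Ugt1a2, Ugt1a5, Ugt1a6a, Ugt1a9 and Ugt1a10 were at 0 to 1.02 CPM in Pre control 1 and 2 and at 23.4 to 32.6 CPM in each of the other 4 libraries, with nearly equal values within a library. Ugt1a1 ran the other way, at 295 and 216 CPM in Pre control 1 and 2 and at 70.5 to 84.8 CPM in the others. The sum over the locus was 449, 343 and 289 CPM in Pre control and 312, 244 and 287 CPM in Pre 2'-FL, a far smaller spread. The members share their last exons, and how reads were divided among them was not tested. Ubd, a ubiquitin-like gene of inflammation, was at 12.1, 1.12 and 79.4 CPM against 25.5, 67.0 and 0.847 CPM. B3galt5, a galactosyltransferase, was at 2.42, 3.56 and 10.3 CPM against 2.54, 108 and 64.0 CPM. The arms overlapped in both genes, and neither was called. The log2 difference was 0.02 for Ubd and 3.42 ± 1.11 (SE) for B3galt5, in which only Pre 2'-FL 1 lay among the controls.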

How the data were processed

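The authors deposited 1 table per library of expected counts per gene (estimated counts that need not be whole), which are raw and not normalised, per the file headers. Between 17.1% and 20.5% of the entries of the 6 libraries are fractional. Per the submitters' processing notes the build was mm10 and DESeq was used, and the aligner, counter, annotation and strand are not given in the sources used here. Of 36186 entries, 486 share an Entrez identifier with another. They were summed to 35791 genes and rounded to whole counts.

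Samples were grouped by their titles. The test used edgeR 4.0.16 in R 4.3.3. After filterByExpr on the groups and TMM scaling, all 12 libraries entered 1 quasi-likelihood fit with 4 group means (8 residual degrees of freedom, biological coefficient of variation 0.238). The test is two-sided with Benjamini-Hochberg adjustment over 13154 genes, called under 0.05. The SE is the log2 difference divided by the square root of F. Log2 levels for spreads use a prior count of 2. One count was worth 0.107 to 0.177 CPM of a library total, which limits the precision of low genes to counting error at best. The scripts were tested on simulated counts.

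The compared libraries, the 38 gene lists (389 genes, 387 found, 4 of these by a synonym; for instance Ciart is Gm129, Jchain is Igj and Msmo1 is Sc4mol in the files) and all rules were chosen with earlier results of these data known. Named genes are the 5 each way with the smallest p at a mean of 5 CPM or more (fewer passed the threshold), up to 4 per list with its extremes, the 15 with the largest SD within groups, and fixed markers. A list was described by counts and its median, with no test. Coordinates and promoter windows are RefSeq's, on GRCm38.p6. Alternatives were upper quartile scaling, DESeq2 1.42.0, no filter, the 6 libraries alone, a replicate block, leaving out Esp38 and Lars2, a correction for transcript length and GC content (GENCODE M21 transcripts matched to RefSeq, 12654 genes, natural splines with 4 degrees of freedom), and leaving out each library. Leaving out Pre control 1 with Pre 2'-FL 1 was added after B cell genes were seen to be high in both. Some members of the lists were counted with them but are not reported here singly.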

Additional observations from a re-analysis of the deposited data

Results flagged for a closer look

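For 13 of the genes followed here, the difference between the arms changed from before to after resection, by edgeR's test of that difference in the same model (adjusted p under 0.05, called for 2038 of 13154 genes, 15.5%). The values are the log2 difference after resection minus the one before. Many of these genes were named for a small p before resection, and that difference enters the change with its sign reversed. Such a choice favours changes of the opposite sign, which all 13 had, so these calls alone do not show a reversal with resection. For genes lower in Pre 2'-FL the change was 3.28 for Dbp (adjusted p = 0.0377), 1.91 for Bcmo1, 2.36 for Akr1c14, 3.97 for Akr1c19, 2.42 for Akr1c13, 1.75 for Akr1c12 and 2.25 for Slc13a1. For genes at higher levels in Pre 2'-FL it was -2.23 for Arntl, -2.46 for Npas2, -1.87 for Nfil3, -1.13 for Stom, -1.96 for Dab1 and -1.56 for Ifit1. After resection Dbp was at only 0.902 to 1.08 CPM in control and 0.372 to 3.03 CPM in 2'-FL, so its change rests partly on few counts. Akr1c19 went from -2.50 before to 1.47 after resection, and Bcmo1 from -3.45 to -1.54. With transcript length and GC content corrected none of the 13 was called, with adjusted p from 0.0530 to 0.281. The size of the change was much the same for some genes, at 3.46 for Dbp, -1.91 for Nfil3, -1.11 for Stom and 1.82 for Bcmo1, and smaller for Akr1c13 (1.46) and Akr1c12 (0.79). The value of Akr1c19 after resection was called without the correction (adjusted p = 0.0183) and was 0.39 with it (adjusted p = 0.591). Before resection itself only Bcmo1 among these 13 had passed the threshold.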

How the results depend on the processing

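The 2 genes called between the arms became 23 (9 higher, 14 lower) with DESeq2, 12 (2 higher, 10 lower) without the filter on low counts, 1 with the 6 libraries alone, and 6 without Pre control 1 and Pre 2'-FL 1. Leaving out each library gave from 0 to 17. Upper quartile scaling, leaving out Esp38 and Lars2, and the correction for length and GC content each gave 2. With the replicate number as a block 0 genes were called, and Bcmo1 and Per2 both had an adjusted p of 0.101. The labels do not say what a number shares, and deviations of same-numbered libraries correlated at 0.42, 0.05 and 0.05, while Pre control 3 correlated best with Pre 2'-FL 2 (0.31), so the block was not taken as a pairing. With 1 library left out, the log2 change of Clock ran from -0.00395 (without Pre control 3) to 0.27, the log2 change of Nr1d1 from -0.84 to 0.019 (without Pre control 1), the log2 change of Fabp6 from -6.85 to 0.51 (without Pre control 2) and the log2 change of Neat1 from -0.17 (without Pre 2'-FL 1) to 1.91, so each changed sign. Neat1 was at -0.35 without Pre control 1 and Pre 2'-FL 1. The cause was not tested. With 3 libraries an arm, and cell type markers that differ between libraries of 1 arm, genes below a few CPM are limited by depth, and a gene that was not called may still differ.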
